A study of Mus musculus with 25 samples.

Results

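Microglia of Bin1 conditional knockout mice were examined for 8 genes. Gnpda1, Eno1b, Diaph1, Hbegf, Ythdc2 and Trim36 lie within 20 Mb of Bin1 on mouse chromosome 18. Gm8615 and Eno1, which share sequence with Gnpda1 and Eno1b, lie on chromosomes 5 and 4. These members are 8 of 43411 genes in the count table, and all 8 were among the 12908 genes with enough counts to be tested. The members were chosen by their measured values: the 6 genes near Bin1 were selected on the difference between homozygous and WT mice, so that difference is described below without a test. The counts come from CD11b+ CD45med cells sorted by FACS from brains of mice aged 3 months. Homozygous mice (Homo, n = 10) were Bin1flox/flox Thy1-Cre+, heterozygous mice (Het, n = 7) were Bin1flox/wt Thy1-Cre+, and WT littermates (n = 6) were Bin1flox/wt Thy1-Cre-. All mice therefore carried at least 1 floxed Bin1 allele, and the WT mice were not free of it. The floxed allele came from strain B6.129S6-Bin1tm2Gcp/J and the transgene from FVB/N-Tg(Thy1-cre)1Vln/J, and the Thy1 promoter drives Cre in neurons, not in microglia. The labels name 25 mice, of which 23 were analysed (11 females and 12 males). All WT and Het mice had animal numbers in the 02xx range and all Homo mice in the 03xx range (6 mice) or the 04xx range (4 mice), so genotype and number range cannot be told apart.

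Alleles close to a targeted locus tend to be inherited together with it, which is why genes near a targeted gene are often looked at separately in knockout mice. A processed pseudogene is a copy of a spliced messenger RNA inserted elsewhere in the genome, and a short read from a stretch that parent and copy share can be assigned to either of them. Gnpda1 encodes glucosamine-6-phosphate deaminase, which turns an amino sugar phosphate into fructose-6-phosphate and ammonia. Eno1 encodes alpha-enolase, a late enzyme of glycolysis, and Eno1b is annotated as a further protein-coding enolase gene. Diaph1 is a formin that nucleates actin filaments, and Hbegf is a membrane-anchored ligand of the EGF receptor. Ythdc2 is an RNA helicase that reads N6-methyladenosine, and Trim36 is a tripartite-motif ubiquitin ligase of the microtubule-binding group.

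The copies differ from their parents at few bases, and the following 60-base stretches, one per gene outside the chromosome of Bin1, are shown because the reads were only 50 bases long and a read that spans none of these bases fits parent and copy alike. The stretches come from GENCODE M21 transcripts of GRCm38 (mm10), and capitals mark the bases at which a copy differs from its parent. The Eno1 stretch lies in a coding exon of Eno1 at chr4:150247582-150247641 on the plus strand. Gm4735 (chr2:80838137-80838196, plus strand) and Gm5855 (chr3:130929616-130929675, minus strand) are processed pseudogenes of Eno1, added after the counts had been seen because they share sequence with Eno1b. Gm8615 (chr5:149155959-149156018, minus strand) is a transcribed processed pseudogene of Gnpda1.
Eno1: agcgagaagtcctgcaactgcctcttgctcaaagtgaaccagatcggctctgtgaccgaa
Gm4735: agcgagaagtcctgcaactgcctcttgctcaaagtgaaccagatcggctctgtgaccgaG
Gm5855: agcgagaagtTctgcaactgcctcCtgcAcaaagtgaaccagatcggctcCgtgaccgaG
Gm8615: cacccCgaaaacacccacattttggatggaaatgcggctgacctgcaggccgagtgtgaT
In these stretches Gm4735 differed from Eno1 at 1 base and Gm5855 at 5 bases, and Gm8615 differed from Gnpda1 at 2 bases. Eno1b differed from Eno1 at 2 bases of the same 60. The stretches were picked for their many differences from the parent, so they are not typical of the aligned length.

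Over the whole aligned length, Gm8615 was 99.1% identical to Gnpda1 (7 of 753 aligned bases differed) and Eno1b was 99.5% identical to Eno1 (9 of 1652). Gm4735 was 99.6% identical to Eno1 (5 of 1302) and Gm5855 was 96.4% identical (47 of 1305). Of all 50-base sequences in Eno1b transcripts, 85.2% also occurred in another gene: 76.4% in Eno1, 63.0% in Gm4735 and 10.8% in Gm5855. For Gm8615 the share with Gnpda1 was 44.3%, whereas only 10.9% of the 50-base sequences of Gnpda1 occurred in Gm8615. Diaph1 and Hbegf shared no 50-base sequence with another gene (0 of 6463 and 0 of 4829), and Ythdc2 and Trim36 shared 0.7% and 1.5% of theirs. Counts of Eno1b, Eno1, Gm4735, Gm5855, Gm8615 and, to a lesser degree, Gnpda1 are therefore uncertain as levels of a single gene.

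Total counts ranged from 10812877 to 16734740 per mouse, and 15865 to 17432 genes had a count. Levels are given as CPM, in which each library total was adjusted with TMM factors, and a gene was called (a DEG) at an adjusted p below 0.05 with a fold change above 1.5 in edgeR's quasi-likelihood test. Between Homo and WT, 439 of 12908 genes were called, 213 higher and 226 lower (3.4% of those tested, 1.65% higher and 1.75% lower). Of the 8 members, 7 were among them, 3 higher and 4 lower. Since that contrast chose the members, nothing is read from this count. Bin1 (chr18:32377230-32435737) itself was at 599.7 to 814 CPM in WT mice, 629 to 747 CPM in Het mice and 327.6 to 673 CPM in Homo mice. Homo F1, M1, M3, M4 and M5 were at 327.6 to 395 CPM and the other 5 at 542 to 673 CPM, of which F2 and F3, at 673 and 644 CPM, lay within the range of WT and Het mice. These are counts over the whole gene, and counts of the exons between the loxP sites were not analysed here. In sorted bulk samples, fewer cells with a transcript and less of it per cell cannot be told apart.

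Gnpda1 (ENSMUSG00000052102.12, chr18:38327535-38339003, 5.89 Mb from Bin1) was higher in every Homo mouse than in any other mouse. Its level was 73.5 to 90.2 CPM in WT mice (median 80.4), 65.3 to 87.8 CPM in Het mice (median 73.9) and 114 to 154 CPM in Homo mice. The group means were 80.5 ± 5.54 CPM (SD, n = 6), 75.3 ± 7.8 CPM (SD, n = 7) and 132 ± 13.9 CPM (SD, n = 10), which gave a log2 fold change of 0.71 between Homo and WT (SE 0.076). Groups without overlap were uncommon: the Homo mice lay wholly above or below all WT and Het mice for 106 of 12908 tested genes (0.821%), Gnpda1 and Gm8615 among them. Gnpda1 varied little within groups, with an SD of 0.15 on the log2 CPM scale in Homo mice, at the 22.6th percentile of tested genes.

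Gm8615 (ENSMUSG00000024437.6, chr5:149155108-149156209), the pseudogene of Gnpda1, showed the opposite pattern in the same mice. It was at 8.19 to 13.0 CPM in WT mice and 8.42 to 11.7 CPM in Het mice, and at 0 to 1.05 CPM in Homo mice, where 0 to 14 reads were assigned to it. Not one of the 10 Homo mice reached the lowest of the other 13, and the log2 fold change between Homo and WT was -4.66 (SE 0.35). Of the reads assigned to either gene, Gm8615 took 11.7% ± 1.58 (SD, n = 6) in WT mice, 11.8% ± 1.15 (SD, n = 7) in Het mice and 0.302% ± 0.251 (SD, n = 10) in Homo mice. The loss of Gm8615 reads was smaller than the gain of Gnpda1 reads. Summed over both genes, the level was 91.2 ± 6.05 CPM (SD, n = 6) in WT mice, 85.4 ± 8.51 CPM (SD, n = 7) in Het mice and 132 ± 14.1 CPM (SD, n = 10) in Homo mice, still without overlap between Homo and the other mice. The fold change of this sum between Homo and WT was 1.45, below the 1.5-fold threshold, and that between Homo and Het was 1.55.

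**Figure D1:**
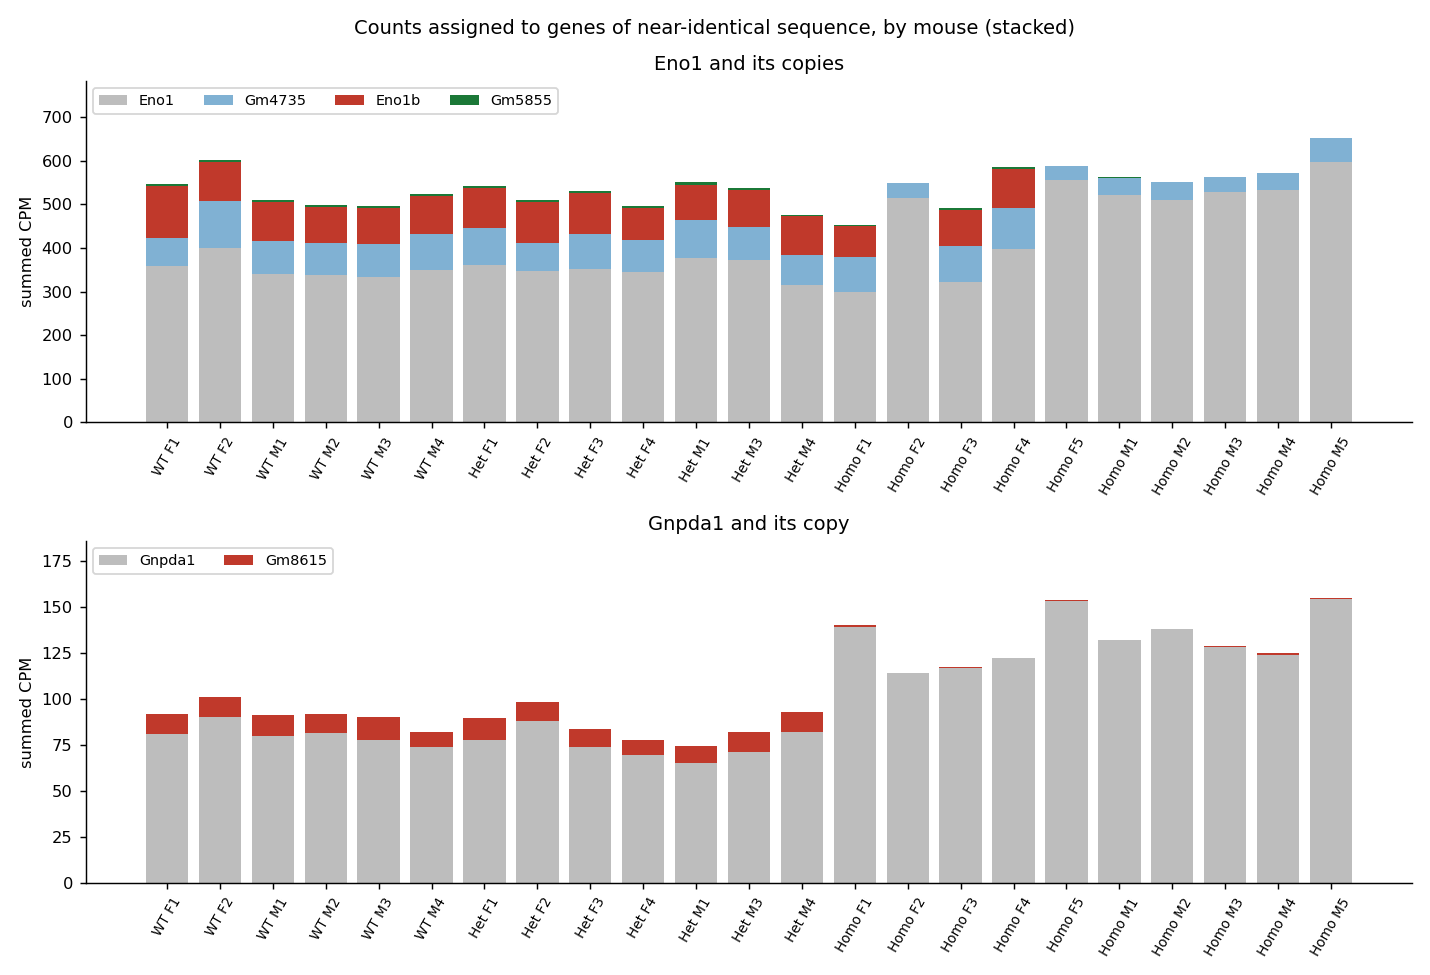
Stacked bars give, for each of the 23 mice (x axis), the CPM assigned to genes of near-identical sequence (y axis, summed CPM from 0): Eno1, Gm4735, Eno1b and Gm5855 above, Gnpda1 and Gm8615 below. The red part for Eno1b is present in Homo F1, F3 and F4 and all but missing in the other 7 Homo mice, while the total height of the enolase bars stays between 453 and 653 CPM in all mice; the Gnpda1 and Gm8615 bars are taller in all Homo mice.

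Eno1b (ENSMUSG00000059040.4, chr18:48045335-48048412, 15.6 Mb from Bin1) split the Homo mice. It was at 83.0 to 119 CPM in WT mice (median 88.4) and 71.8 to 93.9 CPM in Het mice (median 88.0). Among Homo mice it was at 69.8 CPM in F1, 81.5 CPM in F3 and 88.3 CPM in F4, and at 0 to 0.74 CPM in the other 7. A mean over Homo mice (24.1 ± 38.8 CPM, SD, n = 10) therefore describes no animal, and the log2 fold change of -3.15 (SE 0.94) depends on how many mice of each kind were sampled. The SD of Eno1b in Homo mice was 4.17 on the log2 CPM scale, the 100th percentile of tested genes to the printed digit, against 0.191 in WT mice and 0.134 in Het mice. The 3 Homo mice with Eno1b were all females, and they came from both number ranges (F1 and F3 from 03xx, F4 from 04xx).

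Eno1 (ENSMUSG00000063524.11, chr4:150236721-150248879) moved the other way in the same animals. It was at 333.3 to 401 CPM in WT mice and 316 to 376 CPM in Het mice. In Homo F1, F3 and F4 it was at 299, 322 and 398 CPM, within or just below the range of the other genotypes, and in the remaining 7 Homo mice it was at 511 to 597 CPM, above every WT and Het mouse. The log2 fold change between Homo and WT was 0.45 (SE 0.11), a 1.36-fold difference that did not reach the fold threshold.

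The pseudogenes Gm4735 and Gm5855 split the Homo mice as Eno1b did. Gm4735 (chr2:80837141-80838442) was at 64.7 to 107 CPM in WT mice and 65.4 to 87.6 CPM in Het mice. It was at 80.8, 82.7 and 94.3 CPM in Homo F1, F3 and F4, and at 32.6 to 54.6 CPM in the other 7 Homo mice. Gm5855 (chr3:130929366-130930670) was at 2.96 to 5.67 CPM in WT and Het mice, at 4.07, 6.09 and 4.51 CPM in Homo F1, F3 and F4, and at 0 to 0.581 CPM in the rest. Thus 3 features on 3 chromosomes were low in the same 7 mice in which Eno1 was high, and all 4 share 50-base sequences.

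Adding the reads of the 4 enolase features left little of the difference between group means. Their sum was 529 ± 40.3 CPM (SD, n = 6) in WT mice, 521 ± 27.5 CPM (SD, n = 7) in Het mice and 557 ± 54.0 CPM (SD, n = 10) in Homo mice, and the 3 groups overlapped (495 to 602, 475 to 551 and 453 to 653 CPM). With the 4 features fitted as one, the log2 fold change between Homo and WT was 0.07 (SE 0.066), and with Eno1 and Eno1b alone it was 0.18 (SE 0.079). Whether the differences of the single features lie in how reads were assigned or in the transcripts themselves was not tested.

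Hbegf (ENSMUSG00000024486.5, chr18:36504927-36515805, 4.07 Mb from Bin1) was lower in Homo mice. It was at 5.48 to 10.3 CPM in WT mice (median 7.67), 5.75 to 8.92 CPM in Het mice (median 7.79) and 3.3 to 5.8 CPM in Homo mice (median 4.83). In all, 8 of the 10 Homo mice lay below every other mouse, and F3 and F4, at 5.6 and 5.8 CPM, just reached the lowest WT and Het mice. The log2 fold change between Homo and WT was -0.73 (SE 0.13).

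Diaph1 (ENSMUSG00000024456.14, chr18:37843601-37935476, 5.41 Mb from Bin1) was also lower, with more overlap. Levels were 5.7 to 11.9 CPM in WT mice, 6.13 to 12.8 CPM in Het mice and 2.26 to 8.54 CPM in Homo mice, where F1 was lowest and F3 highest. Only 5 of the 10 Homo mice lay below all others. The log2 fold change between Homo and WT was -0.80 (SE 0.21), estimated from 30 to 122 reads per Homo mouse.

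Ythdc2 (ENSMUSG00000034653.9, chr18:44827746-44889724, 12.4 Mb from Bin1) was higher in Homo mice, of which 6 lay above the range of the others and 4 inside it. It was at 4.4 to 8.53 CPM in WT mice, 5.67 to 10.8 CPM in Het mice and 6.65 to 19.4 CPM in Homo mice. Homo F1, F2, M1, M2, M3 and M4 lay above every other mouse, and F3, F4, F5 and M5, at 6.65 to 9.18 CPM, lay within the range of WT and Het mice. The log2 fold change between Homo and WT was 1.03 (SE 0.22).

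Trim36 (ENSMUSG00000033949.9, chr18:46165300-46212607, 13.7 Mb from Bin1) lies 1.34 Mb farther from Bin1 than Ythdc2 and split the Homo mice differently. It was at 21.1 to 32.6 CPM in WT mice and 25.3 to 45.3 CPM in Het mice. Homo F2, F3 and F5 were at 28.9, 31.4 and 32.2 CPM, inside that range, whereas the other 7 Homo mice were at 46.1 to 69.3 CPM, above all WT and Het mice. The log2 fold change between Homo and WT was 0.83 (SE 0.13).

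**Figure D2:**
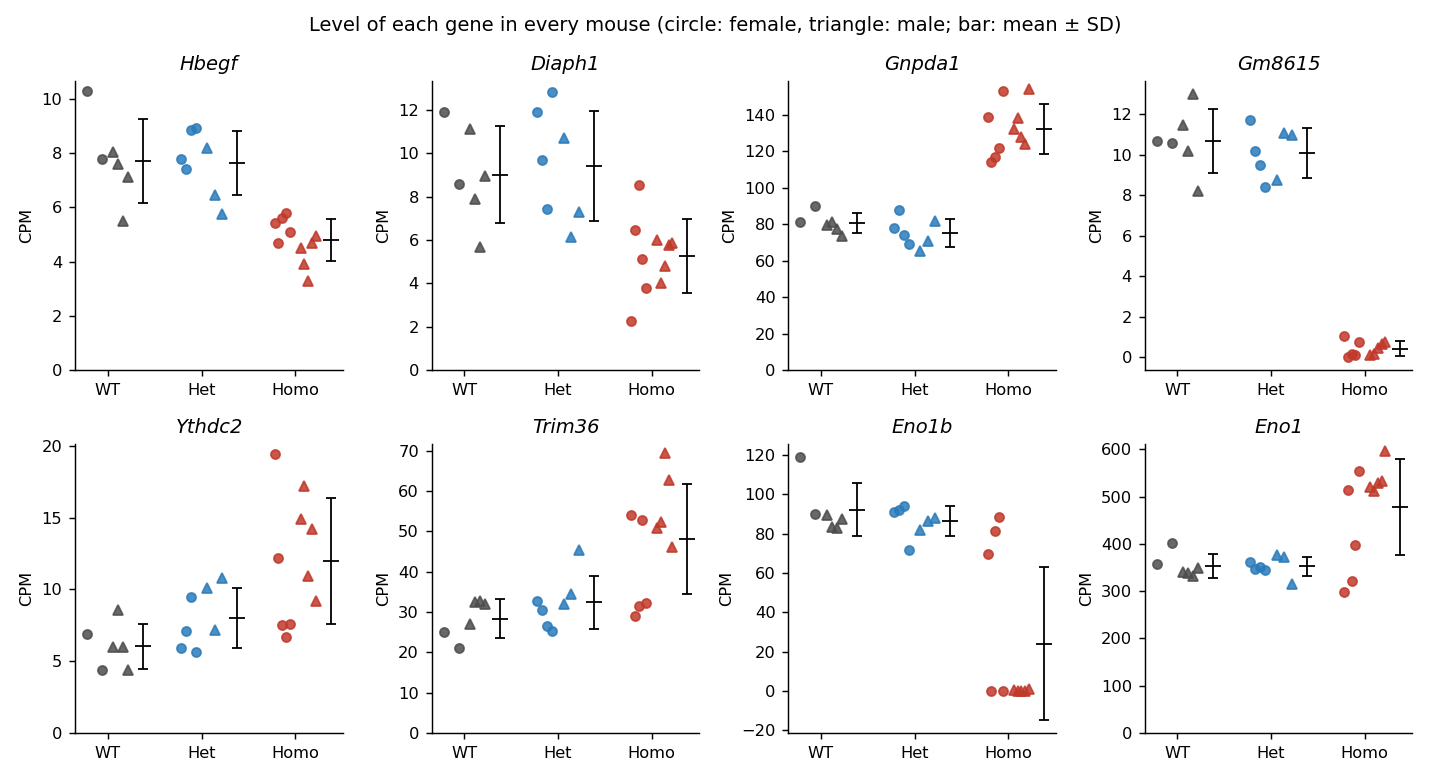
Each panel plots the CPM of 1 gene (y axis, linear) in every WT (n = 6), Het (n = 7) and Homo (n = 10) mouse (x axis), with circles for females, triangles for males and a bar for mean ± SD. Gnpda1 and Gm8615 separate all Homo mice from the others, while Eno1b, Eno1 and Trim36 show 3 Homo mice at the level of WT mice and 7 away from it.

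Read along the chromosome, the Homo mice that lay within the range of WT and Het mice changed from gene to gene: F3 and F4 for Hbegf, 5 mice for Diaph1, none for Gnpda1, 4 for Ythdc2, 3 for Trim36 and again F3 and F4 for Eno1b. Homo F3 was outside that range for 2 of the 8 members in all (Gnpda1 and Gm8615), and F4 for 4. Homo F1, M2 and M3 were outside it for all 8, although Eno1 and Eno1b of F1 were only just below the lowest Het mouse (299 against 316 CPM for Eno1, 69.8 against 71.8 CPM for Eno1b). The other 5 Homo mice were outside it for 6 or 7 members. For comparison, 20.2% to 30.4% of all tested genes lay outside the same range in any single Homo mouse. The members near Bin1 were chosen on the difference between Homo and WT. Their larger share outside the range follows from that choice, and nothing is read from it. Inside the range of the others, F2 had Diaph1 and Trim36, F5 had Ythdc2 and Trim36, M5 had Diaph1 and Ythdc2, and M1 and M4 had Diaph1. The strain origin of each allele cannot be read from gene counts and was not tested.

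**Figure D3:**
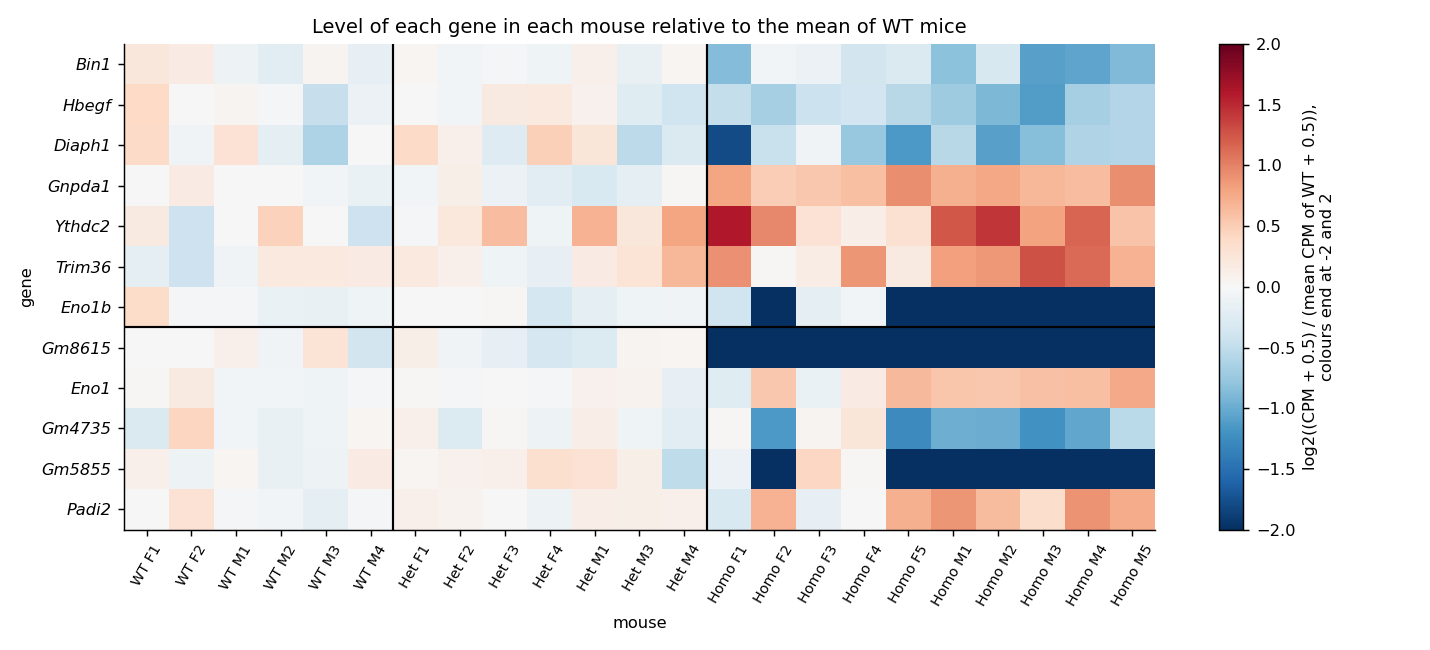
Colours give the log2 ratio of CPM in each mouse (columns) to the mean of WT mice, with 0.5 CPM added to both, for Bin1 and the 6 genes near it in order of distance (above the line) and for genes on other chromosomes (below the line), with colours ending at -2 and 2. Gnpda1 and Gm8615 differ from WT in all 10 Homo columns, and Eno1b, Gm4735 and Gm5855 are near the WT colour in Homo F1, F3 and F4 alone among Homo mice. Eno1 and Padi2 are above WT in the other 7, Padi2 least so in M3 (138 CPM).

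Het mice carry Cre and the same single floxed allele as WT mice. Their comparison with WT did not choose the members, but it shares the 6 WT mice with the one that did, so its p-values are not independent of that choice. None of the 8 members was called between Het and WT, where 0 of 12908 genes were called (0%); DESeq2 and limma-voom also called 0 genes, and 998 genes had an unadjusted p below 0.05. The largest differences among members were those of Ythdc2 (log2 fold change 0.47, SE 0.24, p = 0.056, adjusted p = 0.66), Eno1b (-0.43, SE 0.85, adjusted p = 0.94) and Trim36 (0.30, SE 0.14, p = 0.046, adjusted p = 0.64). For Gnpda1 it was -0.10 (SE 0.082, adjusted p = 0.8), for Gm8615 -0.08 (SE 0.32, adjusted p = 0.97) and for Eno1 0.02 (SE 0.12, adjusted p = 0.97). Diaph1 and Hbegf differed by 0.02 (SE 0.24, adjusted p = 0.99) and -0.09 (SE 0.14, adjusted p = 0.92). The share of reads taken by the copies did not differ detectably either. That of Gm8615 was 0.0982 percentage points higher in Het than in WT mice (two-sided exact permutation test over mice, p = 0.9), and that of Eno1b among reads of Eno1 and Eno1b was 19.7% in Het and 20.6% in WT mice (p = 0.44, adjusted p = 0.89 over the 2 shares, same exact permutation test).

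Homo and Het mice both carry Cre and differ in the number of floxed alleles and in number range. That comparison shares the 10 Homo mice with the one that chose the members, and its values are a description. Of the 8 members, 5 were called (Gnpda1, Gm8615, Eno1b, Diaph1 and Hbegf), against 6.62% of all genes tested (854 of 12908). The log2 fold changes between Homo and Het were 0.81 (SE 0.073) for Gnpda1, -4.58 (SE 0.34) for Gm8615, -2.72 (SE 0.86) for Eno1b, -0.82 (SE 0.21) for Diaph1 and -0.65 (SE 0.13) for Hbegf. Trim36, Ythdc2 and Eno1 differed by 0.53 (SE 0.12), 0.55 (SE 0.21) and 0.42 (SE 0.11), and were not called.

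Sex was tested in the same fit over all 23 mice. No member was called between males and females, where 9 of 12908 genes were (0.0697%). Trim36 had the smallest p among members, with a level higher in males by 0.44 on the log2 scale (SE 0.11, p = 3.0e-04, adjusted p = 0.24). Hbegf was lower in males by a log2 fold change of -0.32 (SE 0.11, p = 0.0079, adjusted p = 0.77). The difference between Homo and WT was then compared between the sexes. No gene passed that interaction test (0 of 12908, 0%), although 644 had an unadjusted p below 0.05. Eno1b had the strongest interaction among the members, -7.19 (SE 1.7, p = 3.2e-04, adjusted p = 0.68), since the difference between Homo and WT was -8.31 (SE 1.2) in males, where all 5 Homo mice were at 0 to 0.74 CPM, and -1.11 (SE 0.84) in females, where 3 of 5 Homo mice were near the WT level. Without Homo F5 the interaction of Eno1b was called (-7.54, adjusted p = 0.011), and in the other 22 fits that left out 1 mouse its adjusted p was 0.064 to 0.94. F2 and F5 are the Homo females at 0 CPM of Eno1b, and the value of 0.064 came without F2. Leaving out either of them leaves mostly Homo females near the WT level, so nothing is read from the call without F5.

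Homo mice with numbers 04xx were compared with those with numbers 03xx to ask whether the members varied with the number range. None of the 7 members with enough counts was called (1 of 12422 genes was, 0.00805%), and Gm8615 had too few counts in Homo mice to be tested. Ythdc2 had the smallest p, with a log2 difference of -0.57 (SE 0.26, p = 0.052, adjusted p = 0.52). For Eno1b the difference was -0.09 (SE 1.4, adjusted p = 0.99), for Gnpda1 0.11 (SE 0.091, adjusted p = 0.75) and for Eno1 0.22 (SE 0.15, adjusted p = 0.68). With 4 mice against 6, differences of the size of these standard errors could not be detected.

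The members were taken from a wider set of neighbours. Of 429 annotated genes of the table within 20 Mb of Bin1, 150 were tested and 13 were called between Homo and WT (8.67%). On the rest of chromosome 18, 7 of 154 were called (4.55%), as were 3.32% of genes elsewhere. Without the 6 members near Bin1, 7 of 144 were called (4.86%). All 6 were chosen as called genes, so this lower share follows from the choice and nothing is read from it. The 7 other called neighbours were Bin1, the growth factor-induced transcription factor Egr1, the vault RNA gene Vaultrc5 and the clustered protocadherins Pcdhb22, Pcdhga5, Pcdhga7 and Pcdhgb4, cell adhesion genes of which the gamma ones share exons. Egr1, 2.42 Mb from Bin1, was at 8.51 ± 1.8 CPM (SD, n = 6) in WT mice and 1100 ± 1470 CPM (SD, n = 10) in Homo mice, and the SD there exceeded the mean. The protocadherins were lower, from Pcdhga5 at 7.74 ± 1.33 CPM (SD, n = 6) in WT and 3.47 ± 0.939 CPM (SD, n = 10) in Homo mice (log2 fold change -1.25, SE 0.23) to Pcdhgb4 (-0.62, SE 0.19). Pcdhga5 was also low in Het mice, at 4.26 ± 1.72 CPM (SD, n = 7), with a log2 fold change of -0.26 between Homo and Het. No Homo mouse lay below all others for Pcdhga5 or Pcdhgb4, whereas 3 did for Pcdhb22 and 9 for Pcdhga7. Vaultrc5 had a log2 fold change of -0.99 (SE 0.27) at a low level. It was at 2.04 ± 0.324 CPM (SD, n = 6) in WT and 1.64 ± 0.636 CPM (SD, n = 7) in Het mice. In Homo mice it was at 1.03 ± 0.255 CPM (SD, n = 10), and only 1 of them lay below all others.

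All 10 Homo mice lay beyond all others for 3 of the 150 genes near Bin1, namely Gnpda1, Egr1 and the ubiquitin-conjugating enzyme Ube2d2a. Over all tested genes this held for 106 of 12908 (0.821%). Gnpda1 is a member chosen on this difference, and without the members 2 of 144 genes remained. Ube2d2a, 3.34 Mb from Bin1, was at 162 ± 7.78 CPM (SD, n = 6) in WT and 192 ± 9.66 CPM (SD, n = 10) in Homo mice, a log2 fold change of 0.23 (SE 0.055). The share of called genes by distance was 6.25% of 64 genes up to 5 Mb, 11.3% of 53 between 5 and 10 Mb, 10.0% of 20 between 10 and 15 Mb and 7.69% of 13 between 15 and 20 Mb. Farther out it was 3.12% of 32 genes (20 to 25 Mb), 6.67% of 45 (25 to 30 Mb) and 15.0% of 20 (30 to 35 Mb), and no gene beyond 35 Mb was called. The medians of the log2 fold change were 0.001 for the 150 genes near Bin1 and 0.012 for all tested genes, and the medians of its absolute value were 0.193 and 0.174.

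Values just inside and outside the limits of the rule were close. Bin1 (1.51-fold) and Pcdhgb4 (1.54-fold, adjusted p = 0.034) were the called neighbours nearest to the fold threshold. Just outside it were Tmem173, which encodes the innate sensor adaptor STING (1.39-fold lower), and Fem1c (1.37-fold higher), while Stard4 (adjusted p = 0.054) and Tslp (adjusted p = 0.055) just missed the p threshold. Eno1b was the called gene farthest from Bin1 inside the limit, at 15.6 Mb, and the nearest called gene outside it was Npc1 at -20.1 Mb, on the other side of Bin1. Around the members on other chromosomes, 15 of 285 tested genes within 20 Mb of Eno1 were called between Homo and WT (5.26%), and 3 of 251 within 20 Mb of Gm8615 (1.2%).

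**Figure D4:**
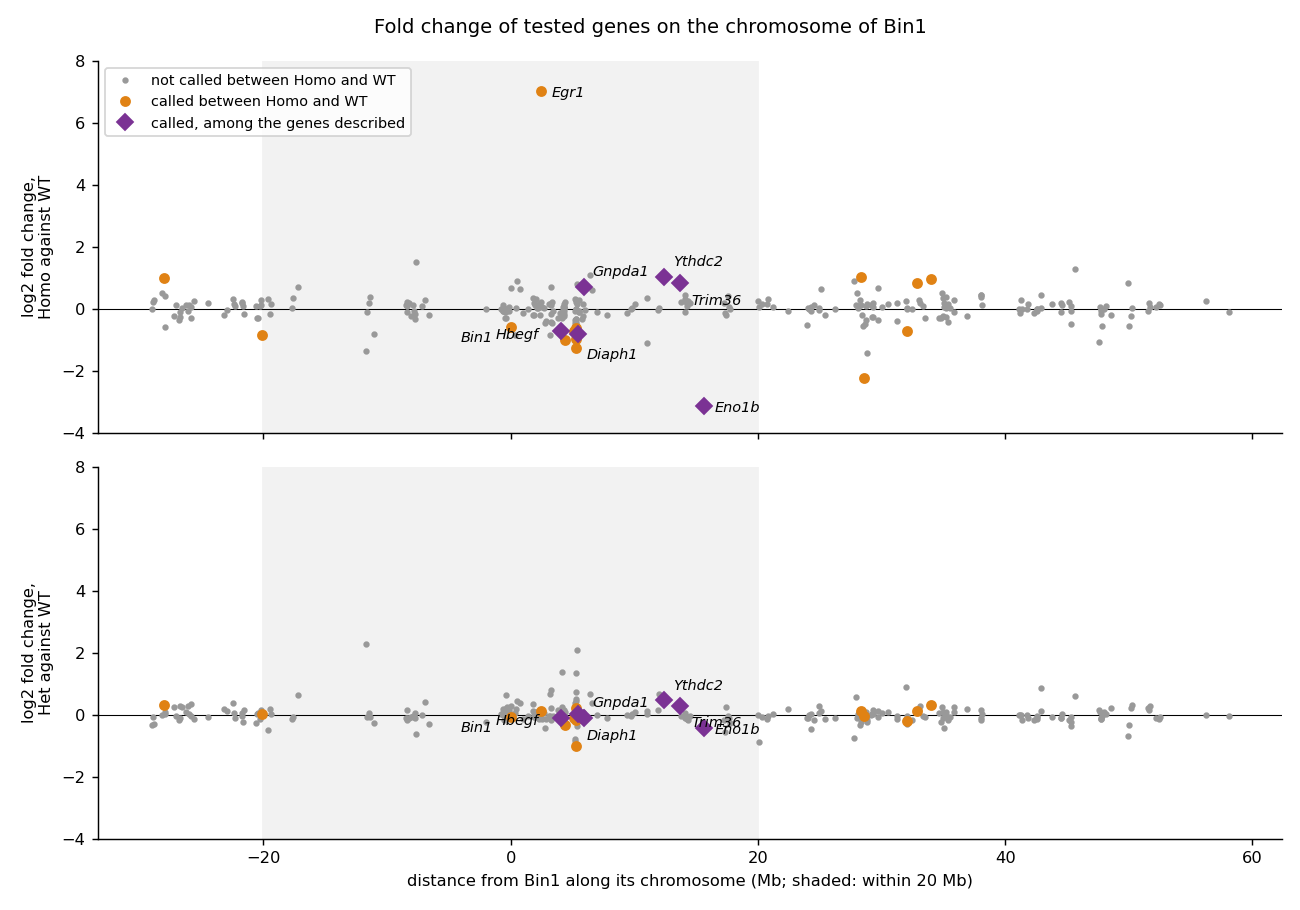
The log2 fold change of every tested gene on the chromosome of Bin1 (y axis) is plotted against its distance from Bin1 in Mb (x axis, shaded within 20 Mb), for Homo against WT above and Het against WT below, with genes called between Homo and WT in orange and the 6 members near Bin1 as purple diamonds. The members lie from -3.15 to 1.03 above and from -0.43 to 0.47 below.

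The genes whose log2 CPM followed each member most closely over all 23 mice were found by Spearman's rank correlation (r), as a description, since the mice share the genotype difference. For Eno1 the closest was Padi2, a peptidylarginine deiminase (r = 0.89), followed by Cd52 (0.86) and Gm12222 (0.79). Over the 13 WT and Het mice alone these were 0.70, 0.38 and 0.47. Padi2 and Cd52 lie on the chromosome of Eno1, at 9.28 and 16.1 Mb from it. Padi2 was at 95.7 to 133 CPM in WT mice and 101 to 119 CPM in Het mice. In Homo F1, F3 and F4 it was at 87.6, 96.8 and 109 CPM, and in the other 7 Homo mice at 138 to 202 CPM, above every WT and Het mouse. Padi2 thus showed the same split as Eno1, but it was picked as the gene most like Eno1 in these mice. Of 12908 tested genes, 793 lie on that chromosome, and whether place bears on the likeness was not tested. Cd52, which encodes a surface glycoprotein of leukocytes, split the Homo mice less cleanly, with 43.3, 45.8 and 64.1 CPM in F1, F3 and F4 and 52.2 to 96.3 CPM in the others. For Eno1b the closest were Agtrap, 2.15 Mb from Eno1 (r = 0.83), Adra2a (0.83) and 2410131K14Rik (0.82). Agtrap did not show the split, at 36.7 to 46.4 CPM in Homo mice.

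Gnpda1 was most like Snap29 (r = 0.89), Slfn2 (0.87) and Crtc2 (0.86), and Gm8615 most like Fzr1 (0.84), Unc5cl (0.81) and Gm12166 (0.81). Hbegf was most like Mmp11 (0.90), Sparc (0.90) and Il11ra1 (0.89), and Diaph1 most like Fam168a (0.86), Erp29 (0.83) and 6030468B19Rik (0.82). For Ythdc2 they were Asnsd1 (0.87), Gm12696 (0.83) and Srsf3 (0.82), and for Trim36 they were Trmo (0.81), Zfp873 (0.78) and Rbmxl1 (0.76). None of these lies on chromosome 18. Over the 13 WT and Het mice alone, r for the genes named here ranged from 0.27 (Unc5cl with Gm8615) to 0.85 (Trmo with Trim36). Of the 30 named genes most like Trim36 in either direction, however, 5 lie there (16.7%, against 2.36% of all tested genes): Diaph1 (r = -0.75), Hbegf (-0.74), Tnfaip8 (0.74), Bin1 (-0.74) and Map3k8 (0.72). For the other members that number was 0 to 2 of 30. Diaph1 and Hbegf are members chosen on the difference between Homo and WT, and Bin1 and Map3k8 were also called for it. The correlations run over mice of all genotypes and so follow that difference. Nothing is therefore read from the share for Trim36.

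Genes that work with the members were taken from lists written from general knowledge, and each list holds at least 1 member, chosen with its values known. Of 5 enolases, all tested, 2 were called lower between Homo and WT, Eno1b and the neuronal Eno2 (3.27 ± 2.0 CPM, SD, n = 6, in WT and 0.89 ± 0.737 CPM, SD, n = 10, in Homo mice), and the muscle enolase Eno3 differed by -0.19 (SE 0.13, adjusted p = 0.38). Of 15 genes of glycolysis around enolase, 2 were called lower (Pfkm, -0.64, SE 0.14, and Aldoc, -1.61, SE 0.37) and none higher, with a median log2 fold change of -0.01. The abundant ones beside Eno1 differed little, with Aldoa at 0.08 (SE 0.056) and Pkm at 0.05 (SE 0.062). Of 15 tested genes of amino sugar metabolism only Gnpda1 was called, and the median was -0.02. There Ogt, the O-GlcNAc transferase, was at -0.18 (SE 0.11), and Hk2 and Renbp were at -0.01 (SE 0.066) and -0.09 (SE 0.067). Over all tested genes 1.75% were called lower and 1.65% higher between Homo and WT, and the background median was 0.012. Aldoc is also among the astrocyte markers below. None of the genes of these lists was called between Het and WT.

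Among 7 tested EGF family ligands, receptors and sheddases only Hbegf was called, with a median log2 fold change of -0.23. The sheddases Adam10 and Adam17 were at -0.29 (SE 0.12, adjusted p = 0.11) and -0.23 (SE 0.1, adjusted p = 0.15), and Cd9, which binds the Hbegf precursor, was at -0.02 (SE 0.098). Of 15 tested formins and genes of the same actin pathway only Diaph1 was called between Homo and WT (median 0.07), and Fmnl2 was called in addition between Homo and Het. The actin-binding protein Pfn1 was at 0.18 (SE 0.059, adjusted p = 0.049), Fmnl3 at -0.28 (SE 0.075, adjusted p = 0.015) and Rhob at 0.45 (SE 0.16, adjusted p = 0.072). Of 15 tested readers, writers and erasers of N6-methyladenosine only Ythdc2 was called (median 0.18). Ythdf2, at 0.24 (SE 0.057, adjusted p = 0.0062), was below the fold threshold, and Ythdf3 and Fto were at 0.16 and 0.11. Of 11 COS-box TRIM ligases, which bind microtubules, 2 had enough counts, the member Trim36 and Mid1. Mid1 was called higher, as were 1.65% of all tested genes (0.376 ± 0.238 CPM, SD, n = 6, in WT and 1.4 ± 0.998 CPM, SD, n = 10, in Homo mice).

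The 10 microglia markers were all measured, with sums of 62600 to 89700 CPM in WT, 58500 to 78500 CPM in Het and 53900 to 63100 CPM in Homo mice. Sums of WT and Homo mice thus overlapped only between 62600 and 63100 CPM, and 1 of the 10 was called lower. The 8 neuron markers summed to 6.23 to 32.5 CPM in WT, 7.92 to 27.5 CPM in Het and 2.04 to 6.13 CPM in Homo mice. Homo mice thus lay below all WT and Het mice for this sum, and 3 of 5 tested neuron markers were called lower. The 5 astrocyte markers summed to 209 to 309 CPM and the 5 oligodendrocyte markers to 33.7 to 109 CPM in all groups. Of each, 3 were tested and 1 was called lower, which for astrocytes was Aldoc. Both monocyte markers together were at 3.68 to 5.7 CPM in WT, 2.81 to 9.59 CPM in Het and 7.85 to 21.3 CPM in Homo mice, so that Het and Homo mice overlapped. Only 1 of them was tested, and it was called higher between Homo and WT. The endothelial marker Cldn5 and the border macrophage marker Mrc1 are listed at 0 in all mice. Against 3.4% of all tested genes, at least 1 marker each of microglia, neurons, astrocytes, oligodendrocytes and monocytes was thus called between Homo and WT mice. They were called beside Diaph1, Hbegf, the protocadherins and Eno2, and the part of these cell types in those differences was not tested.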

How the data were processed

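RNA of sorted microglia was sequenced as 50-base single-end reads from SMARTer cDNA and Nextera XT libraries. The authors mapped the reads to mm10 (OSA4, Ensembl R84 models) and deposited expected counts per gene from RSEM, without scaling for depth or length. Strand setting and handling of reads that map to several places are not given in the sources used here. Expected counts were rounded, filterByExpr kept 12908 genes, and libraries were normalized by TMM. Of 43411 identifiers, 42929 matched the GENCODE M21 annotation. One quasi-likelihood fit (edgeR 4.0.16, R 4.3.3) held the 3 genotypes and sex, with Benjamini-Hochberg adjustment over all genes tested. A fit of genotype and sex together gave the interaction, and the number ranges were fitted in Homo mice alone with sex. Standard errors come from the fold change and the F statistic. Shares of copy reads were compared by exact permutation over mice, whose smallest steps come from 1716 arrangements. Alternatives were DESeq2 1.42.0, limma-voom (limma 3.58.1), other scalings, filters and subsets of mice. The fits were tested on simulated data. Members, lists and rules were chosen with earlier results of these data known. Named are the members, Bin1, called genes within 20 Mb of it, the 3 genes most like each member, and of each list the 3 most abundant and all called genes. Genes at the limits of the rule, Ube2d2a, Tnfaip8, Map3k8, Gm4735 and Gm5855 were named after their values were seen. Counting error at this depth is large for genes of a few CPM, and each mouse is 1 library.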

Additional observations from a re-analysis of the deposited data

Results flagged for a closer look

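In 24 checks of 8 members in 3 genotype groups, 2 mice stood apart from the rest of their group by Dixon's criterion, which chance alone meets in about 1 of 20 groups. Eno1b in WT mouse F1 was at 119 CPM, and the other 5 WT mice were at 83.0 to 90.2 CPM. Eno1 in WT mouse F2 was at 401 CPM, and the other 5 WT mice were at 333.3 to 358 CPM. Eno1b shares 76.4% of its 50-base sequences with Eno1 and 63.0% with Gm4735, and Gm4735 was lowest of the WT mice in F1 (64.7 CPM) and highest in F2 (107 CPM). The split of Homo mice by Eno1b, with 3 mice against 7, is not of the kind that this criterion detects. The interaction of genotype and sex for Eno1b did not pass the test over all genes.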

How the results depend on the processing

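No member changed the direction of its difference between Homo and WT in any setting tried. The members near Bin1 were chosen on this difference, and the settings reuse the same mice. The calls below therefore describe how the results depend on processing and are no test of the members. Gm8615 was called in all 14 alternatives and all 23 fits that left out 1 mouse (log2 fold changes of -5.09 to -4.25). Eno1b was not called without a sex term (-1.92), with robust dispersion (-3.15), with females alone (-1.11), with Homo numbers 03xx alone (-2.64) or 04xx alone (-2.52), or without WT M1 (-3.07), Homo M1 (-2.83), Homo M2 (-2.83) or Homo M5 (-2.85). Diaph1 was not called within either sex (-0.96 in females, -0.68 in males) or without WT F1 (-0.73) or WT M1 (-0.71). With females alone, in which there are 2 WT mice, Gnpda1 (0.59), Hbegf (-0.76), Ythdc2 (0.91) and Trim36 (0.79) were not called either. Hbegf was not called with males alone (-0.73). Contrasts within each sex in the fit of genotype and sex over all 23 mice, which pools the spread, called Gnpda1 in females (0.59) and Hbegf in males (-0.72). Ythdc2 was not called with Homo numbers 04xx alone (0.67). Gnpda1 summed with Gm8615 fell below the fold threshold (0.53), and Eno1 passed it with males alone (0.66).

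Of the genes tested between Homo and WT, 3.4% were called, and this was 12.7% with no fold threshold, 0.185% in females alone, 1.58% in males alone and 2.19% with no filter on low counts, where more genes were tested. Near Bin1, 13 genes were called, or 24 with no fold threshold, 0 in females alone, 8 in males alone and 6 with Homo numbers 04xx alone. The 24 were of 150 tested, beside 21 of 154 on the rest of chromosome 18 and 1645 of 12908 over all genes. With Homo numbers 04xx alone, 2.5% of all genes tested were called. Leaving out 1 mouse gave 2.55% to 3.68%, and 10 to 15 genes near Bin1. Within 10 Mb there were 10 called genes (8.55% of those tested) and within 30 Mb 17 (7.49%). Between Homo and Het, 3 members were called in females alone, with Homo numbers 04xx alone, and with the copies summed, where Eno1b and Gm8615 no longer stand as features; the sum over all 4 enolase features, chosen after seeing the data, also gave 3. Leaving out 1 mouse gave 4 to 6 members. No member was called between Het and WT or between the sexes in any setting, and the interaction called 0 members, or 1 without Homo F5. With expected counts as deposited, the copy shares differed by 0.106 and -0.928 percentage points. No paired analysis was possible because the labels give the mice of different genotypes no shared replicate numbers.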
